A study of Mus musculus with 27 samples.

Results

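Complement regulators and receptors were described here through 8 genes, taken by symbol from the table of 55487 genes. They were the soluble regulators Cfi, Serping1 and Clu, the membrane regulators Cd59a, Cd46 and Csmd1, and the receptors C3ar1 and C5ar1. Complement is a cascade of plasma proteins that marks cells and debris for removal and can end in a membrane pore. Regulators in the fluid phase and on cell membranes hold the cascade in check on host cells, and receptors on myeloid cells sense the small fragments that are split off when C3 and C5 are cleaved. In the retina, microglia carry complement receptors, and glia and pigment epithelium make several of the soluble factors.

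The study asked what a loss of sialic acid does to the retina of middle-aged mice, and whether complement is needed for it. The product of Gne is the first enzyme on the route to sialic acid. RNA of whole retinas from 27 mice aged 9 months was measured by 3′ sequencing (QuantSeq), which reads the end of each transcript. The wildtype group held 7 mice (Gne+/+ C3+/+), and the Gne+/- group held 7 mice with 1 inactive Gne copy and intact C3. The C3-/- group held 7 mice that lack C3 and have both Gne copies, and the Gne+/- C3-/- group held 6 mice that carry both changes. C3 is the central protein of the cascade, so the C3-/- groups keep all 8 genes described here but lack the protein whose fragments Cfi, Cd46 and C3ar1 act on or bind. No promoter or recombinase is named for either knock-out, and the deleted part of each gene is not given in the sources used here. Each library came from its own mouse, per the labels, which place 18 libraries in sequencing run 1 (5 wildtype, 5 Gne+/-, 4 C3-/- and 4 Gne+/- C3-/-) and 9 in sequencing run 2 (2, 2, 3 and 2).

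Each library held 13.5 to 34.2 M counts. Gne was lower where labelled: the Gne+/- libraries of run 1 lay at 33.87 to 56.73 CPM (counts per M library counts, with library sizes scaled by TMM factors) against 99.2 to 161.6 CPM in wildtype. C3 lay at 0 to 3.598 CPM in the C3-/- and Gne+/- C3-/- libraries against 53.85 to 285.1 CPM in the others. Rod photoreceptor markers summed to 22750 to 65760 CPM. Of the microglia markers, 9 of 10 were tested and summed to 27.05 to 69.0 CPM, and P2ry12 was listed at 0 in all 27 libraries because other genes cover its whole span. Lens markers summed to 1.192 to 1788 CPM over the libraries. Libraries with Y-linked genes above 10 CPM were 0 of 5 wildtype, 2 of 5 Gne+/-, 4 of 4 C3-/- and 2 of 4 Gne+/- C3-/- mice in run 1, and 2 of 2, 2 of 2, 0 of 3 and 2 of 2 in run 2. Within each run, C3-/- against wildtype therefore cannot be told apart from a difference in Y-linked expression, which had opposite directions in the runs.

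No member was at 0 through gene overlap. Reads were counted over whole genes without strand, and reads where 2 annotated genes overlap were dropped, so a gene covered by others can be listed at 0 whatever its expression. Cfi, Cd59a, Serping1, Clu, C3ar1 and C5ar1 share no base with another annotated gene. Csmd1, the longest of them at 1643050 bases, is covered over 1.07% of its span and at none of its transcript ends. C5ar1 was the one member with libraries at 0, in 11 of 27, and it has no overlap. Among related genes outside the 8, Itgam, a subunit of complement receptor 3, was at 0 in every library with 99.9% of its span covered, and Fcna, a lectin pathway recognition protein, was at 0 with 100% covered.

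Cd46 was the member whose measured region is limited by overlap. The gene runs on the minus strand of chromosome 1 from 195036826 to 195092249 (GRCm38), and its last 1000 bases are covered to 100% by genes on the plus strand. These are the long non-coding gene A330023F24Rik, which shares 1079 bases with it, and inside that stretch the microRNA genes Mir29b-2 and Mir29c, both listed at 0 themselves. Of 4 annotated Cd46 transcripts, Cd46-203, the protein-coding one, ends in the covered stretch, and the other 3 end 5009 to 5097 bases upstream. The counts of Cd46, 14361 in all, therefore come from outside the 3′ end of its coding transcript. Upstream of the other 3 ends, Gm37366 covers bases 5557 to 7853 from the annotated end, and 10.1% of the Cd46 span is covered in all. The mature microRNAs that lie in the last 1000 bases are shown because they mark the sequence in which neither Cd46 nor its neighbours can be counted. Capitals mark the seed that these microRNAs share, bases 2 to 8. They are read from RefSeq (GRCm38.p6), plus strand, at chr1:195037091-195037113 and chr1:195037600-195037621.
mmu-miR-29b-3p: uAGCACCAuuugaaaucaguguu
mmu-miR-29c-3p: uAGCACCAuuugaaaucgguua

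**Figure D1:**
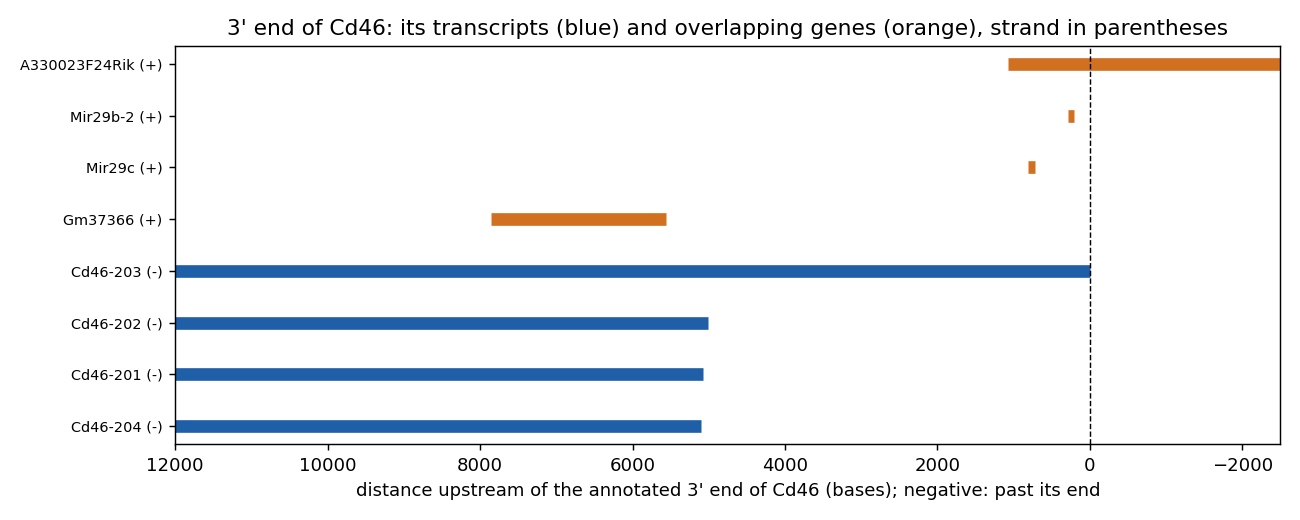
The 3′ end of Cd46, with distance from the annotated end in bases on the x axis, its 4 transcripts in blue and the overlapping annotated genes in orange. Cd46-203 ends under A330023F24Rik, and the other transcripts end 5009 to 5097 bases upstream of it.

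No member was called in any genotype comparison. In edgeR's quasi-likelihood test over 17409 genes, with genotype and sequencing run in the model, 0 of 8 members passed an adjusted p of 0.05 in Gne+/- against wildtype (0.00574% of all genes called), in Gne+/- C3-/- against C3-/- (0.00574%), in C3-/- against wildtype (0.167%), in Gne+/- C3-/- against Gne+/- (0.19%) or in the difference of the 2 Gne effects (0%, with 554 genes at an unadjusted p under 0.05). The test of any difference among the 4 genotypes called 0 of 8 members and 0.35% of all genes. No member reached an unadjusted p under 0.05 in any of these comparisons, and none passed the threshold with DESeq2, limma-voom or another alternative, where the lowest adjusted p was 0.352. Between 3 and 4 of the 8 members were on the positive side in each comparison, and their median log2 fold change lay between -0.055 and -0.0055, against medians of -0.0071 to 0.0050 for all genes tested. The comparisons share groups, so these counts are not independent of each other. In whole retinas, fewer cells of a type and less RNA per cell cannot be told apart.

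**Figure D2:**
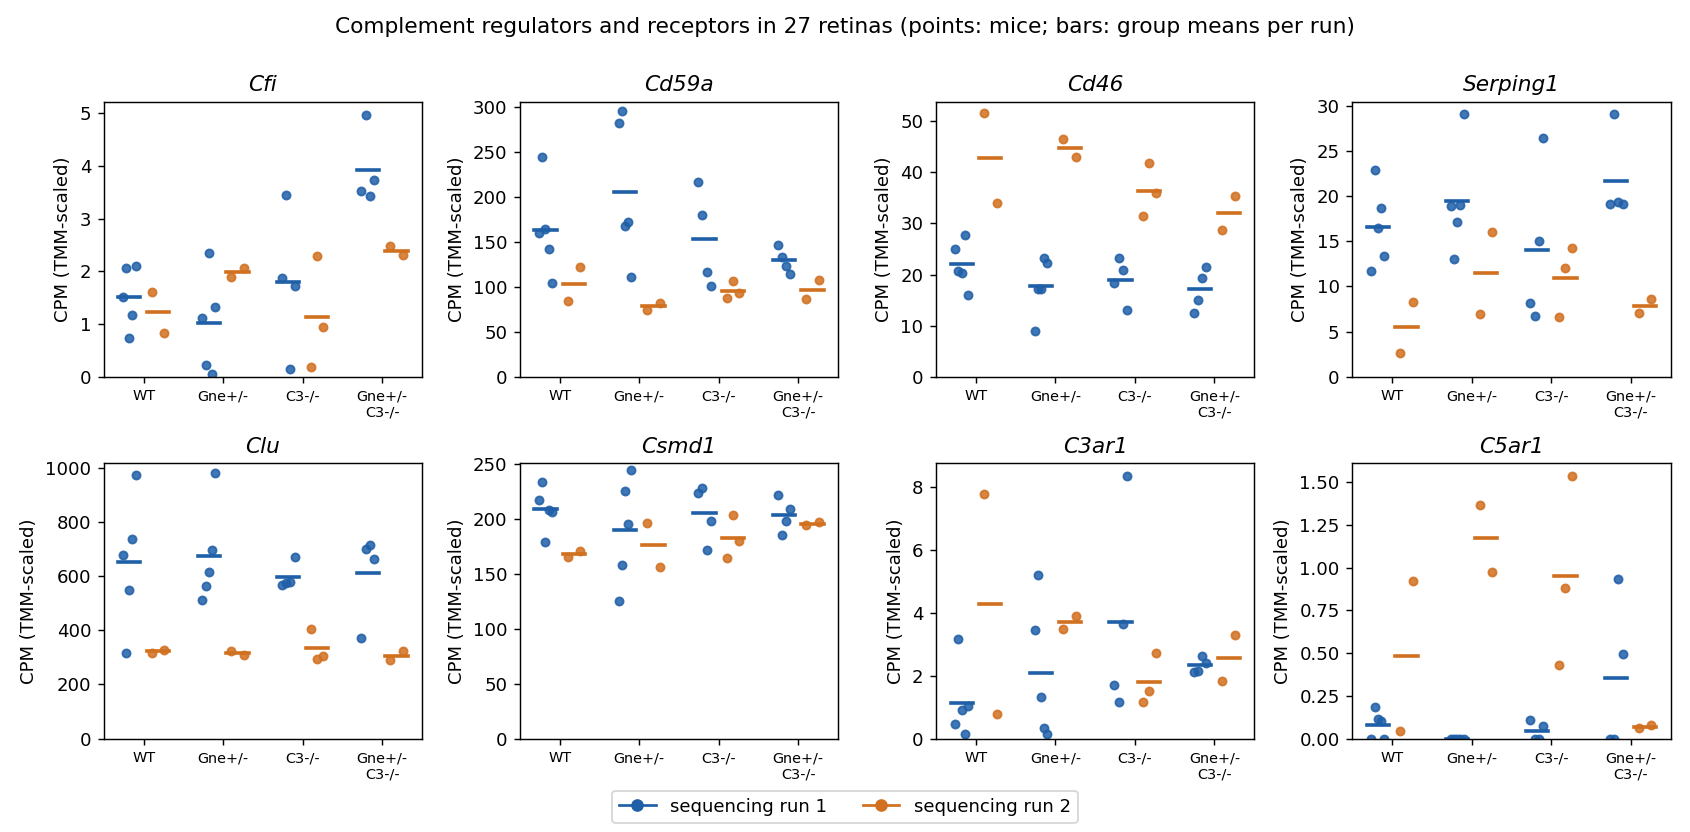
CPM of the 8 members in 27 retinas, by genotype on the x axis, with 1 point per mouse, bars for group means and colours for the sequencing run. The genotype groups overlap in most panels, while Cd46 in run 2 lies above every library of run 1 and Clu, Cd59a and Serping1 lie lower in run 2.

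Cfi encodes complement factor I, the protease that cleaves activated C3 and C4 fragments with the help of cofactors. The gene lies at chr3:129835884-129875332 on the plus strand (GRCm38, as for the genes below), and its levels came from 1 to 83 counts per library. In run 1, Cfi lay at 1.51, 2.06, 0.736, 1.18 and 2.10 CPM in wildtype mice, and at 1.11, 0.226, 2.36, 0.0556 and 1.32 CPM in Gne+/- mice. The C3-/- mice of that run lay at 1.88, 3.45, 0.143 and 1.73 CPM, and the Gne+/- C3-/- mice at 3.52, 4.98, 3.44 and 3.74 CPM. In this run the Gne+/- C3-/- mice were above all wildtype and Gne+/- mice, and their lowest value, 3.437 CPM, fell just under the highest C3-/- value, 3.445 CPM.

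In the second run the Gne+/- C3-/- mice again had the highest Cfi, with smaller distances to the rest. Wildtype mice lay at 1.61 and 0.834 CPM, Gne+/- mice at 1.90 and 2.06 CPM, C3-/- mice at 0.184, 2.29 and 0.944 CPM, and Gne+/- C3-/- mice at 2.48 and 2.30 CPM. The Gne+/- C3-/- values were above all others of the run, the nearest being a C3-/- mouse at 2.29 CPM. Cfi was the 1 member of 8 whose Gne+/- C3-/- and Gne+/- libraries did not overlap in either run with the same direction in both; this held for 0.758% of all genes tested. In the other 3 pairwise comparisons 0 of 8 members did so, against 0.0689% of all genes in Gne+/- against wildtype, 0.253% in Gne+/- C3-/- against C3-/- and 0.511% in C3-/- against wildtype. Pigment epithelium markers summed to 556.9 to 764.5 CPM in Gne+/- C3-/- and 324.7 to 680.4 CPM in Gne+/- mice of run 1, and to 110.2 to 282.3 and 79.72 to 97.84 CPM in run 2, and their part in the Cfi levels was not tested.

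The fitted difference of Cfi did not pass the test. Gne+/- C3-/- against Gne+/- gave a log2 fold change of 1.36 (SE 0.688, 95% interval -0.04 to 2.76, edgeR adjusted p 0.787). Within run 1 the value was 1.92 (SE 0.824, edgeR adjusted p 0.81), and within run 2 it was 0.27 (SE 1.36). Against C3-/- the Gne+/- C3-/- mice gave 1.15 (SE 0.681, 95% interval -0.23 to 2.54, edgeR adjusted p 1), with 1.14 in run 1 and 1.05 in run 2. Cfi in Gne+/- against wildtype gave -0.11 (SE 0.66) and in C3-/- against wildtype 0.10 (SE 0.656), with intervals that reach beyond 1 log2 unit on either side.

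Serping1 encodes C1 inhibitor, which blocks the proteases that start the classical and lectin pathways, and lies at chr2:84765387-84775444 on the minus strand. In run 1 it lay at 11.68 to 22.86 CPM in wildtype, 13.09 to 29.14 CPM in Gne+/-, 6.737 to 26.41 CPM in C3-/- and 19.12 to 29.16 CPM in Gne+/- C3-/- mice, and the ranges overlapped. In run 2 the ranges were 2.639 to 8.299, 6.996 to 16.05, 6.638 to 14.28 and 7.037 to 8.66 CPM in the same order, again overlapping.

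Its largest fitted genotype value was 0.45 (log2, SE 0.305, 95% interval -0.18 to 1.07, edgeR adjusted p 0.896) for Gne+/- against wildtype, with 0.25 in run 1 and 1.10 in run 2. The difference of the Gne effects for Serping1 took opposite signs in the runs, 0.40 in run 1 and -1.59 in run 2 (edgeR adjusted p 0.766 in run 2). The value over both runs was -0.26 (SE 0.448).

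Clu encodes clusterin, a secreted chaperone that also keeps the terminal complex from inserting into membranes, and lies at chr14:65968483-65981547 on the plus strand. In run 1 Clu lay at 677.9, 315.6, 548.5, 737.0 and 972.3 CPM in wildtype and at 511.5, 561.8, 615.3, 695.4 and 981.5 CPM in Gne+/- mice. The C3-/- mice lay at 567.0, 574.6, 579.5 and 671.1 CPM and the Gne+/- C3-/- mice at 370.9, 699.5, 713.5 and 663.3 CPM. The wildtype range held the values of the C3-/- and Gne+/- C3-/- mice, and the groups overlapped.

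In run 2 the 9 libraries lay together, between 291.1 and 405.4 CPM. Over both runs, Clu in Gne+/- against wildtype had a log2 fold change of 0.03 (SE 0.17), a fold of 1.02 with a 95% interval of 0.802 to 1.30. The other genotype values were -0.04 for Gne+/- C3-/- against C3-/-, -0.11 when Gne+/- C3-/- was set against Gne+/- and -0.05 when C3-/- was set against wildtype, each smaller than its SE.

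Cd59a encodes the membrane anchor protein that stops the last step of the membrane attack complex, and lies at chr2:104095801-104115354 on the plus strand. In run 1 it lay at 159.5, 244.6, 164.2, 141.4 and 103.8 CPM in wildtype and at 282.1, 294.6, 167.8, 172.1 and 110.3 CPM in Gne+/- mice. The C3-/- mice lay at 215.9, 180.1, 116.8 and 100.8 CPM, and the Gne+/- C3-/- mice at 146.4, 132.9, 123.1 and 114.3 CPM. Gne+/- mice 1 and 2 had the highest values of all, and the remaining Gne+/- mice lay within the wildtype range.

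In run 2, the Gne+/- mice lay lowest for Cd59a, at 74.16 and 82.11 CPM, against 84.16 and 122.2 CPM in wildtype and 85.98 and 107.5 CPM in Gne+/- C3-/- mice. Gne+/- mice thus held the highest Cd59a values of run 1 and the lowest of run 2. The groups of run 2 held 2 or 3 mice. The share of all genes without overlap in run 2 alone was not computed, here or for Cd46, C3ar1 and C5ar1 below. Gne+/- C3-/- against Gne+/- gave -0.39 (log2, SE 0.219, 95% interval -0.84 to 0.06, edgeR adjusted p 0.815), made of -0.70 in run 1 and 0.30 in run 2. Gne+/- against wildtype gave 0.15 (SE 0.208), made of 0.37 in run 1 and -0.38 in run 2. Lens markers summed to 131.1 to 1788 CPM in the Gne+/- mice of run 1, against 1.192 to 171.4 CPM in wildtype, and their part in the Cd59a levels was not tested.

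Cd46 encodes membrane cofactor protein, a partner of factor I which in mice is best known from the testis. In run 1 it lay at 16.0 to 27.81 CPM in wildtype, 8.887 to 23.28 CPM in Gne+/-, 13.13 to 23.27 CPM in C3-/- and 12.55 to 21.52 CPM in Gne+/- C3-/- mice. All 4 ranges overlapped. In run 2, the ranges were 33.98 to 51.71 CPM in wildtype, 43.08 to 46.57 CPM in Gne+/-, 31.41 to 41.85 CPM in C3-/- and 28.68 to 35.46 CPM in Gne+/- C3-/- mice. The Gne+/- C3-/- mice thus lay below the Gne+/- mice, with 2 mice in each group. That comparison gave -0.49 (log2, SE 0.251, edgeR adjusted p 0.826) in run 2 and -0.06 (SE 0.274) in run 1. Over both runs the largest fitted value for Cd46 was -0.23 (log2, SE 0.195, 95% interval -0.63 to 0.16, edgeR adjusted p 0.999) for C3-/- against wildtype.

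Csmd1 encodes a large membrane protein with many complement control domains that is made mainly by neurons and limits complement activation, and lies at chr8:15892537-17535586 on the minus strand. It varied least of the 8: the residual SD of its log2 CPM within genotype and run was 0.222, against 0.366 for Cd46, 0.384 for Clu and 0.753 for Cfi, which has far fewer counts. In run 1, Csmd1 lay at 179.3 to 234.2 CPM in wildtype, 125.1 to 244.9 CPM in Gne+/-, 171.9 to 228.4 CPM in C3-/- and 185.5 to 221.8 CPM in Gne+/- C3-/- mice. Gne+/- against wildtype gave a log2 fold change of -0.08 (SE 0.118), a fold of 0.945 with a 95% interval of 0.801 to 1.12. The interval of each of the 4 pairwise comparisons for Csmd1 lay within 0.4 log2 units of 0.

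C3ar1 encodes the receptor for C3a, the fragment that is released when C3 is cleaved, and is found on microglia and macrophages. It lies at chr6:122847138-122856161 on the minus strand. C3ar1 levels came from 3 to 188 counts per library. In run 1 it lay at 0.447, 3.15, 0.906, 0.154 and 1.02 CPM in wildtype, and at 1.71, 1.15, 3.64 and 8.33 CPM in C3-/- mice. In run 2 the wildtype mice lay at 7.75 and 0.790 CPM and the C3-/- mice at 1.17, 1.51 and 2.71 CPM. The C3-/- mice were mostly higher in run 1, and in run 2 they lay between the 2 wildtype mice, which differed more from each other than from any C3-/- mouse.

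C3-/- against wildtype for C3ar1 gave 0.66 (log2, SE 0.713, 95% interval -0.79 to 2.11, edgeR adjusted p 0.999), made of 1.66 (SE 0.89) in run 1 and -1.23 (SE 0.882) in run 2. Y-linked genes were above 10 CPM in all C3-/- and no wildtype mice of run 1, and the reverse in run 2. Within a run, the C3 genotype and Y-linked expression thus cannot be told apart for this comparison. Microglia markers summed to 38.25 to 60.53 CPM in wildtype and 41.65 to 54.46 CPM in C3-/- mice of run 1. The Gne+/- C3-/- mice lay at 2.12 to 2.62 CPM of C3ar1 in run 1, inside the Gne+/- range of 0.152 to 5.19 CPM, and in run 2 at 1.83 and 3.28 CPM, below the Gne+/- mice at 3.46 and 3.90 CPM. The Gne effect on C3ar1 was 0.41 (SE 0.699, 95% interval -1.01 to 1.83) with C3 present and -0.30 (SE 0.724, 95% interval -1.77 to 1.17) without it.

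C5ar1 encodes the receptor for C5a, carried by neutrophils, macrophages and microglia, lies at chr7:16246743-16259540 on the minus strand and was close to the limit of detection. It had 191 counts in all libraries together, 33 in the 18 libraries of run 1 and 158 in the 9 libraries of run 2. In run 1, the wildtype mice had 0, 3, 2, 2 and 0 counts, the 5 Gne+/- mice 0 each, the C3-/- mice 2, 0, 0 and 1, and the Gne+/- C3-/- mice 0, 0, 16 and 7. A count of 0 in the Gne+/- libraries allows up to 3 counts, or 0.152 to 0.226 CPM, a limit that covers counting error only. In run 2 the wildtype mice had 1 and 21 counts, the Gne+/- mice 41 and 27, the C3-/- mice 7, 32 and 26, and the Gne+/- C3-/- mice 1 and 2.

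The genotype order of C5ar1 was not the same in both runs. Gne+/- C3-/- mice held the highest values of run 1, at 0.932 and 0.494 CPM in mice 5 and 6, and in run 2 they lay at 0.0591 and 0.0780 CPM, below the C3-/- and Gne+/- mice. The fitted values had wide intervals, such as 2.52 (log2, SE 1.44, 95% interval -0.41 to 5.46, edgeR adjusted p 0.815) for Gne+/- C3-/- against Gne+/-. The value for that comparison was -3.985 (SE 2.40) in run 2 alone.

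**Figure D3:**
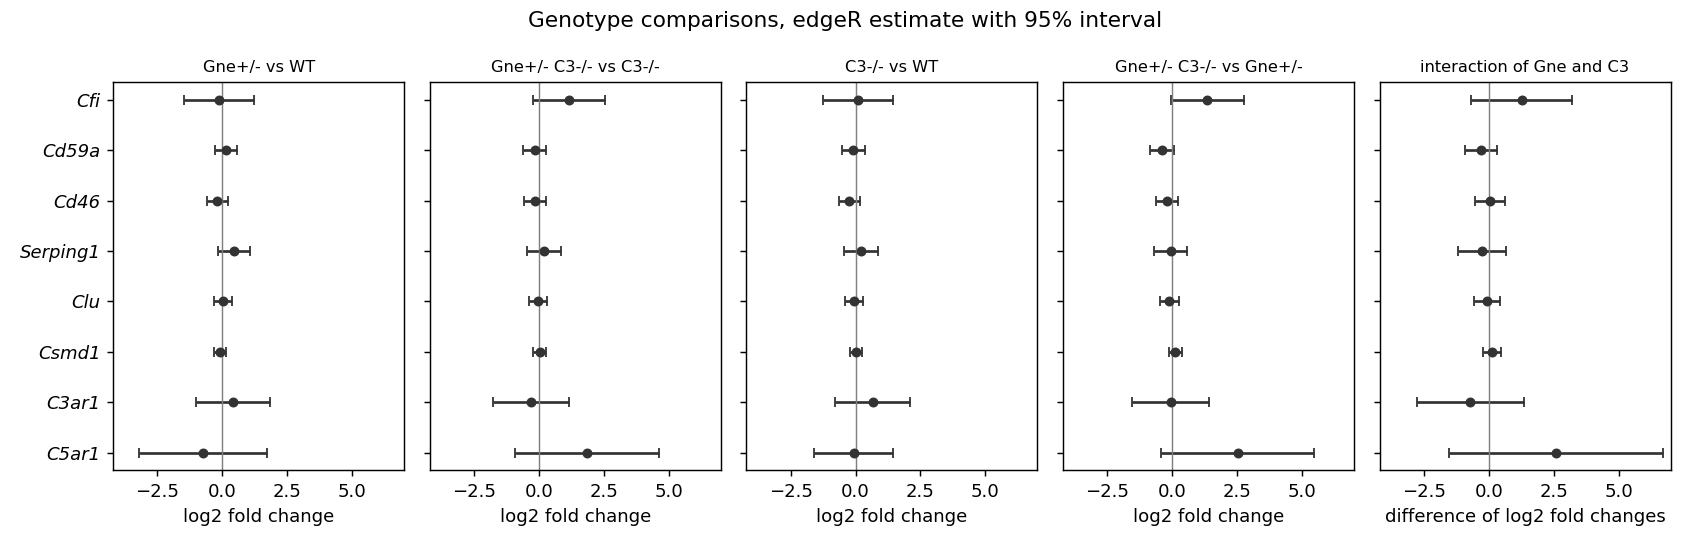
Fitted log2 fold changes of the 8 members in the 4 genotype comparisons, and the difference of the Gne effects in the last panel, with 95% intervals as bars. The intervals all include 0, are narrow for Csmd1 and Clu and are widest for C5ar1.

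More members were called between the sequencing runs than between genotypes, where none was called. Of the 8, 2 were higher and 3 lower in run 2 past an adjusted p of 0.05 (edgeR), in a comparison where 59.5% of all genes tested were called, 30.3% higher and 29.2% lower. The members' share was thus close to that of all genes. All 4 genotypes were sequenced in both runs, and the labels do not say what else differed between them.

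Cd46 was higher in run 2: its 18 libraries of run 1 lay at 8.887 to 27.81 CPM and its 9 libraries of run 2 at 28.68 to 51.71 CPM, with no overlap. The share of all genes without overlap between the runs was not computed. The log2 fold change of Cd46 was 1.04 (SE 0.145, edgeR adjusted p 1.49e-07). A330023F24Rik, the gene over the 3′ end of Cd46, had a mean of 52.0 CPM in run 1 and 80.3 CPM in run 2. C5ar1 was higher too, by 3.69 (SE 1.11, edgeR adjusted p 0.0045). It was at 0 in 11 of 18 libraries of run 1 and in 0 of 9 of run 2. In run 2, wildtype mouse 7 had 1 count and the Gne+/- C3-/- mice had 1 and 2. C5ar1 passed the low-count filter mainly through libraries of run 2. The filter thus favoured this direction, and the p is read with that limit.

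Clu, Serping1 and Cd59a fell in run 2. Clu dropped by 0.98 on the log2 scale (SE 0.138, edgeR adjusted p 2.5e-07), from a mean of 636.5 to 321.3 CPM. Serping1 dropped by 0.98 (SE 0.25, edgeR adjusted p 0.00104) and Cd59a dropped by 0.77 (SE 0.167, edgeR adjusted p 0.00019). Summed markers of Mueller glia lay at 4370 to 6697 CPM in run 1 and 2570 to 3818 CPM in run 2, those of pigment epithelium at 210.7 to 805.8 and 55.8 to 282.3 CPM, and those of rods at 34800 to 65760 and 22750 to 29410 CPM. The mean was lower in run 2 for 5 of 8 tested Mueller glia markers, 5 of 7 of pigment epithelium and 3 of 5 of rods, while Apoe, for example, had a mean of 160.7 CPM in run 1 and 490.4 CPM in run 2. The part of these cells in the fall of the members was not tested.

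Csmd1 (-0.16, SE 0.0913, edgeR adjusted p 0.125), Cfi (-0.14, SE 0.509, edgeR adjusted p 0.825) and C3ar1 (0.51, SE 0.534, edgeR adjusted p 0.428) did not pass the threshold. Csmd1 passed it, at -0.19 with an adjusted p of 0.0381 (edgeR), when Gne+/- mouse 1 was left out. Cd46, Clu, Serping1 and Cd59a kept their call in each alternative and in each fit without 1 library. C5ar1 kept its call in the 22 fits without 1 library and the 6 other alternatives that gave a value. It fell below the low-count filter when any 1 of 5 libraries of run 2 was left out, and under the stricter filter. Those fits could not test its call.

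**Figure D4:**
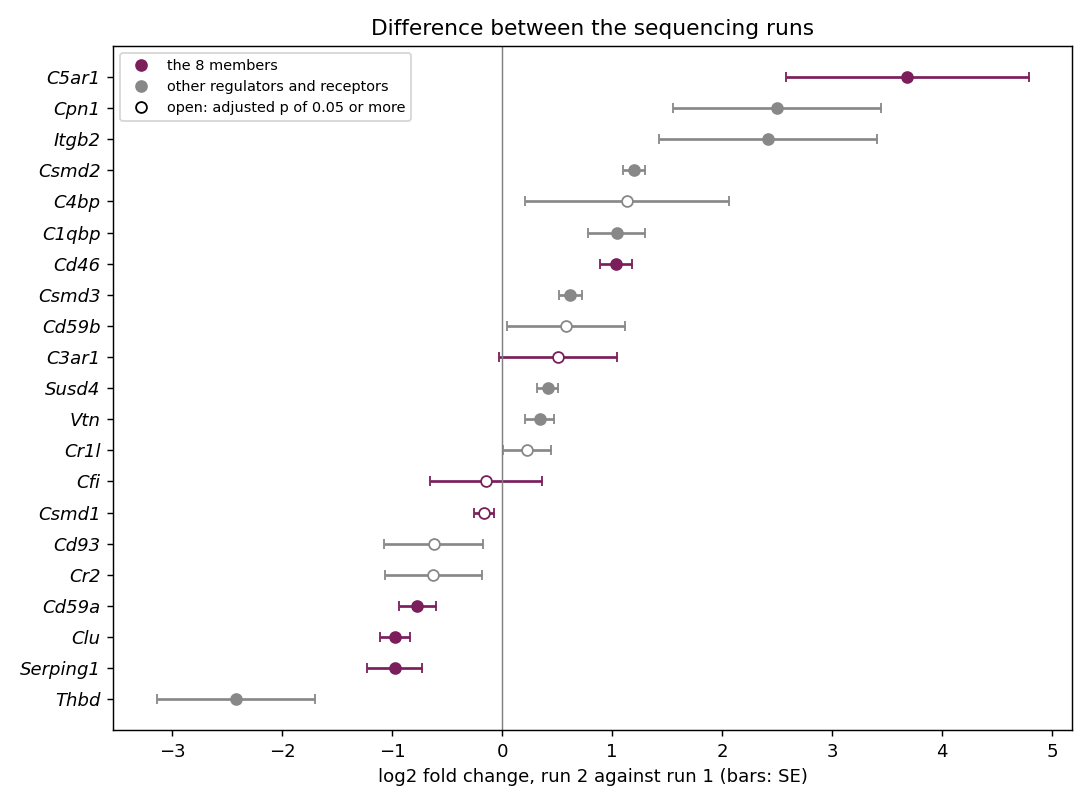
Log2 fold changes between sequencing run 2 and run 1 for the 8 members and other complement regulators and receptors that were tested, with SE as bars and open points for an adjusted p of 0.05 or more. Cd46 and C5ar1 lie on the positive side and Clu, Serping1 and Cd59a on the negative side.

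The other regulators and receptors of the pathway were read from a list of 21 genes, of which 14 were tested. None was called by edgeR, DESeq2 or limma-voom in any genotype comparison, and at most 1 of the 14 had an unadjusted p under 0.05 in edgeR in each. Between 5 and 11 of the 14 were on the positive side, with median log2 fold changes of -0.06 for the Gne effect with C3, 0.37 in Gne+/- C3-/- against C3-/-, -0.02 in C3-/- against wildtype and 0.16 in Gne+/- C3-/- against Gne+/-. C4bp, the cofactor of factor I for C4b, had the smallest p of the list in both comparisons with the C3-/- group, which share its libraries. It was at 0 in 11 of 27 libraries, with a mean of 0.386 CPM, and gave 3.75 (log2, SE 1.41, edgeR adjusted p 1) in Gne+/- C3-/- against C3-/- and -3.59 (SE 1.39, edgeR adjusted p 0.81) in C3-/- against wildtype.

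Between the runs, 8 of these 14 were higher and 1 was lower, where 30.3% of all genes were called higher and 29.2% lower. Csmd2 and Csmd3, the relatives of Csmd1, were higher in run 2 by 1.20 (log2, SE 0.102, edgeR adjusted p 2.86e-12) and 0.62 (SE 0.104, edgeR adjusted p 3.85e-06), beside -0.16 for Csmd1; the difference between these genes was not tested. Thbd, encoding the thrombin receptor thrombomodulin, dropped by 2.42 (SE 0.718, edgeR adjusted p 0.00407).

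Of 29 complement components, 13 were tested. In the genotype comparisons the 1 called component was C3 itself, which dropped by 6.72 on the log2 scale (SE 0.618, edgeR adjusted p 6.08e-07) in C3-/- against wildtype and dropped by 7.26 (SE 0.673, edgeR adjusted p 7.02e-07) in Gne+/- C3-/- against Gne+/-. Cfb, encoding factor B of the alternative pathway, could not be followed, since 99.4% of its span is covered by other genes and it was at 0 in 25 libraries. The 8 members were uncalled in the same comparisons in which the loss of C3 was called.

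Relations among the members and with marker lists were examined over the 27 mice, on log2 CPM centred within each run, with permutation within runs, and 60 relations were computed. None passed adjustment over the 60. The strongest among the members was Cd59a with Clu, with a Pearson r of -0.556 (permutation p 0.00902, adjusted 0.239) and a Spearman rho of -0.582 (permutation p 0.00392, adjusted 0.137). Without the 2 mice farthest from the median of Cd59a r was -0.588, and it was -0.716 when centred within genotype and run. It was -0.596 in run 1 and -0.0742 in the 9 mice of run 2, and the difference between the runs was not tested. Cfi with Csmd1 gave an r of 0.446 (permutation p 0.0278, adjusted 0.301) and a rho of 0.492 (permutation p 0.0123, adjusted 0.185), with an r of 0.43 in run 1, 0.531 in run 2 and 0.442 without the 2 farthest mice.

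Of the marker lists, endothelium had the lowest p with Cfi by Pearson r, with an r of -0.55 (permutation p 0.00295, adjusted 0.177) and a rho of -0.501 (permutation p 0.00821, adjusted 0.164), which became -0.34 for r without the 2 farthest mice. By Spearman rho, Mueller glia had the lowest p with Cfi, with a rho of -0.543 (permutation p 0.00456, adjusted 0.137) and an r of -0.394 (permutation p 0.037, adjusted 0.301). Clu with fibroblast and sclera gave an r of -0.536 (permutation p 0.012, adjusted 0.239) and a rho of -0.399 (permutation p 0.057, adjusted 0.393). Serping1 with microglia gave an r of 0.43 (permutation p 0.0234, adjusted 0.301) and a rho of 0.393 (permutation p 0.0441, adjusted 0.393), and r was 0.215 without the 2 farthest mice. For C3ar1 with microglia, r was -0.0944 (permutation p 0.656, adjusted 0.895).

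**Figure D5:**
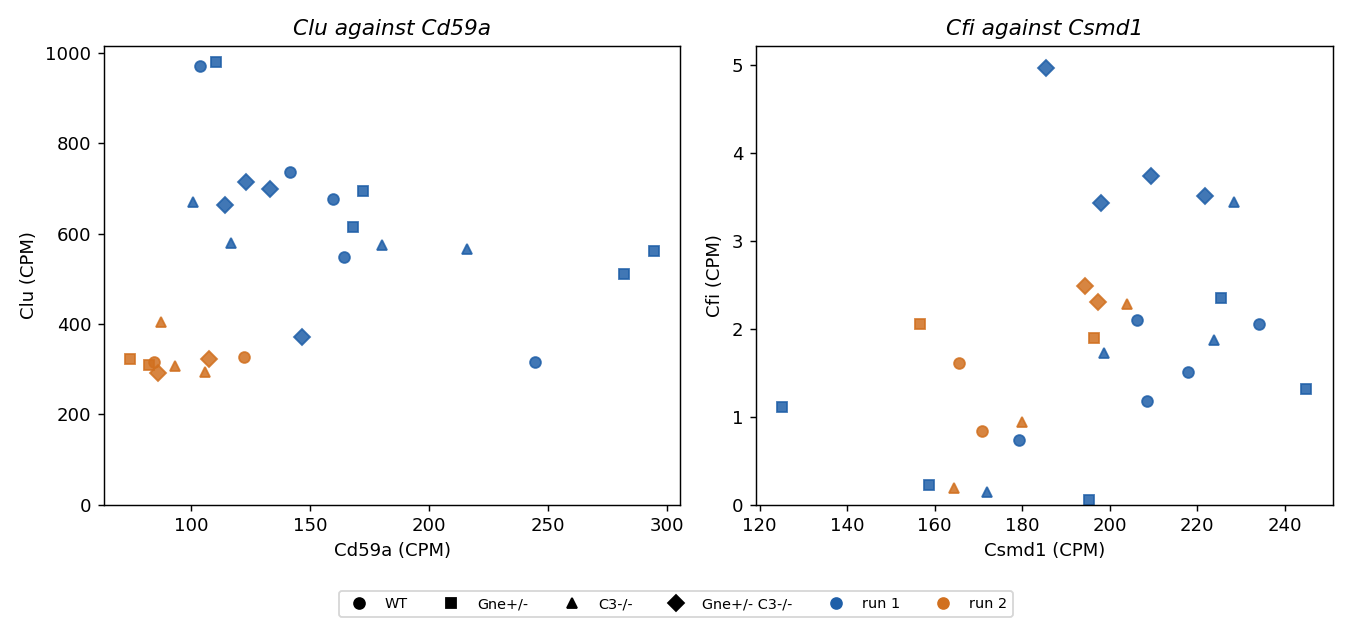
Clu against Cd59a and Cfi against Csmd1 in CPM, with 1 point per mouse, symbols for the genotype and colours for the sequencing run. In run 1, mice with high Cd59a tend to lie lower in Clu, with an r of -0.596, and in the 9 mice of run 2 r is -0.0742.

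For the 5 members with a mean of at least 50 counts per library, the genes with the most similar pattern over the 27 run-centred libraries were listed by Pearson r, as a description without a test, and these genes share depth and library quality with the members. Csmd1 was most like Nrg3 (r 0.831), Pcdh15 (r 0.83) and Gphn (r 0.808), which span 1104, 1550 and 458.4 kb, where the median tested gene spans 24.93 kb and 0.0574% of tested genes span as much as Csmd1. Clu was most like Necab2 (r 0.891), Stmn3 (r 0.876) and Ube3b (r 0.875), with r of 0.666, 0.229 and 0.209 in run 2. Cd59a was most like Kmt2c (r 0.903), Alkbh6 (r 0.887) and Abhd16a (r 0.885), with r between 0.178 and 0.391 in run 2. Cd46 was most like Herc2 (r 0.783), Celf2 (r 0.768) and Dach1 (r 0.756), which span 181.6, 969.9 and 382.9 kb. Serping1 was most like Cbx2 (r 0.748), Dapk2 (r 0.71) and Zpbp (r 0.703), of which Cbx2 and Dapk2 were near the floor, with means of 1.7 and 0.5878 CPM. The genes listed for Clu, Cd59a and Serping1 span 5.588 to 227 kb.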

How the data were processed

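The authors deposited unnormalized counts for each gene and library. Reads were aligned with STAR 2.7.3a, per the submitters' processing notes, which also name Subread 2.0.0. The counting program was featureCounts 2.0.3 with the Ensembl 101 annotation of GRCm38, over exon and gene features, with no strand option and no option for reads that overlap several genes, per the file headers. Library input was 100 ng of total RNA, per the labels' protocols. The series table equalled the single files in every value (0 differences). Symbols were matched for 55141 of 55487 genes.

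Genotypes were compared with edgeR 4.0.16 (R 4.3.3): filterByExpr by group (minimum count 10), TMM factors, estimateDisp and a robust quasi-likelihood fit of genotype and sequencing run over all 27 libraries, with 22 residual degrees of freedom. This left 17409 genes, all 8 members among them, with a common biological coefficient of variation of 55.1%. P-values were adjusted over all genes tested with the Benjamini-Hochberg method and called under 0.05. SE values come from the F statistic, and 95% intervals use the t distribution with the fit's degrees of freedom. Correlations used log2(CPM + 0.5) and 100000 permutations. P-values measure the spread between mice. The fit was tested on simulated counts.

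Overlaps and transcript ends were read from GENCODE M21 (GRCm38), in which the span of each member equals that of the counted annotation. Coding genes that others cover wholly were at 0 in 1251 of 1251 cases, against 12.8% of 11865 without overlap.

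Named genes were the members, Gne and C3, and, from the 2 complement lists, genes past the threshold and up to 3 with the smallest p in each comparison, of which the text gives some as examples. A result on 1 gene of these lists is not reported here. Members and lists were chosen with earlier results of these data known. Alternatives were DESeq2 1.42.0, RLE factors, limma-voom (limma 3.58.1), dropping the filter or requiring over 1 CPM in 6 libraries or more, dropping robust estimation or the run term, fitting each run by itself, the mouse number as a replicate block, a term for Y-linked expression, and leaving out each library.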

Additional observations from a re-analysis of the deposited data

Results flagged for a closer look

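In 32 groups of 4 or 5 libraries (8 members, 4 genotypes, run 1), 3 had a library far from the rest by Dixon's criterion at the 95% level, which chance flags in about 1 in 20 groups. Serping1 was 29.16 CPM in Gne+/- C3-/- mouse 4, where the nearest of the other libraries was at 19.4 CPM. Clu was 671.1 CPM in C3-/- mouse 6, with the nearest at 579.5 CPM. Clu was also 370.9 CPM in Gne+/- C3-/- mouse 3, with the nearest at 663.3 CPM.

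Of 64 pairs of effects looked at, 1 had every library of one pair moving against every library of the other. The share of all genes with such a pattern was not computed, so this count cannot be set against a background. The groups of run 2 held 2 or 3 mice, and C5ar1 had 1 and 2 counts in the Gne+/- C3-/- mice and 1 and 21 counts in the wildtype mice. In run 2, C5ar1 was higher in Gne+/- than in wildtype mice by 0.6892 CPM (1.171 against 0.4817 CPM) and lower in Gne+/- C3-/- than in C3-/- mice (0.06858 against 0.9484 CPM, a difference of -0.8799 CPM). Within run 2 the difference of these effects did not pass the test (log2 -4.97, SE 3.08, edgeR adjusted p 0.825), and over both runs it was 2.60 (log2, SE 2.03, edgeR adjusted p 1.00), with the opposite sign.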

How the results depend on the processing

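The members stayed uncalled in every genotype comparison in each of the 1485 values computed under 11 alternatives and 27 left-out libraries, with a lowest adjusted p of 0.352 (edgeR, DESeq2 or limma-voom). C5ar1 gave no value under the stricter filter, in run 1 alone and without any 1 of 5 run 2 libraries, since it fell below the filter. Of these values 110 changed sign; 14 did so where the value exceeded its own SE in either fit, and only these are counted as turned round. They were, for Cd59a in run 2 alone, -0.3832 in Gne+/- against wildtype, 0.3036 in Gne+/- C3-/- against Gne+/- and 0.4064 for the interaction of Gne and C3, 0.02141 for that interaction with the replicate block (-0.31 in the reported fit), and for C3ar1 in run 2 alone -1.233 in C3-/- against wildtype. C5ar1 in Gne+/- C3-/- against C3-/- became -1.305 (limma-voom), -0.7362 (no run term) and -3.685 (run 2 alone), against Gne+/- it became -0.649, -0.3862 and -3.985, and the interaction became -1.052, -1.517 and -4.971 in the same order. The cause was not tested.

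Whether mouse numbers pair the samples was looked at through deviations from genotype and run means, and was not tested. Over 31 same-numbered pairs r was -0.0792 to 0.393 with a median of 0.00692, and 9 were over 0.1. Over 120 other pairs r was -0.469 to 0.406 with a median of -0.00107. With the number as a replicate block, the counts of genes called were 1, 1, 23, 27, 0 and 57, in the order used next.

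Over all genes, the counts called were 1 in Gne+/- against wildtype, 1 in Gne+/- C3-/- against C3-/-, 29 in C3-/- against wildtype, 33 in Gne+/- C3-/- against Gne+/-, 0 for the interaction and 61 for any genotype difference. DESeq2 gave 8 in Gne+/- against wildtype, 63 in C3-/- against wildtype, 87 in Gne+/- C3-/- against Gne+/- and 113 for any genotype difference. No low-count filter gave 72, 9, 91, 306, 30 and 498 in the order above. Limma-voom gave 72 in C3-/- against wildtype, 59 in Gne+/- C3-/- against Gne+/- and 99 for any genotype difference. Without a run term the counts were 0, 0, 13, 13 and 17, in the same order without the interaction. Run 2 alone gave 5 for Gne+/- C3-/- against C3-/-, 11 against Gne+/-, 4 for the interaction and 26 for any genotype. Leaving out 1 library gave 1 to 2 genes for Gne+/- against wildtype (2 without Gne+/- mouse 5) and 20 to 40 for Gne+/- C3-/- against Gne+/- (20 without Gne+/- C3-/- mouse 3). Depth limits Cfi, C3ar1 and C5ar1, which had as few as 1, 3 and 0 counts in a library.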
